A study of Mus musculus with 64 samples.

Results

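The response to loss of RPB9, the small RNA polymerase II (Pol II) subunit encoded by Polr2i, was examined by RNA sequencing in mouse embryonic stem (ES) cells whose RPB9 carries an auxin-inducible degron. Such a tag marks a protein for destruction by the proteasome once auxin (indole-3-acetic acid, IAA) and the plant receptor OsTir1 are both present. The comparison takes the 4 libraries labelled RPB9 at the 12 h time point, 2 from untreated cells and 2 from cells given 500 µM IAA for 12 h, out of 64 libraries in the series, and covers all genes. All cells were of the V6.5 line and grew with the GSK3 inhibitor CHIR99021 (3 µM) and the MEK inhibitor PD0325901 (0.5 µM). Doxycycline was given for 12 h to induce OsTir1, per the labels to untreated cells as well, at 2 µg/ml by the protocol and 1 µg/ml by the series text. Wild-type (WT) cells and the other 11 degron lines, RPB1 to RPB8 and RPB10 to RPB12, were treated in the same way with 2 libraries per group, and each line has its own untreated libraries. The sources used here do not say whether WT cells carry OsTir1 or whether the RPB9 line is 1 clone. Separate cultures are not stated for the 2 libraries of any group either. The p-values therefore measure the spread between these samples only, and that spread may be technical.

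RPB9 sits at the jaw of Pol II, at the edge of the cleft that takes in downstream DNA, and is built of zinc-binding domains. In yeast, where cells survive without it, it is known for its part in start site choice, in the accuracy of RNA synthesis and in the rescue of backtracked Pol II together with TFIIS, the factor that makes the enzyme cut its own transcript. Budding yeast RPB9 also takes part in transcription-coupled repair of DNA.

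The 4 RPB9 libraries held 5581452 to 5798718 counts and the 4 WT libraries 4366545 to 5207199. Replicates correlated at r = 0.9943 untreated and 0.9939 after IAA (log2 CPM across 11522 genes, which are not independent replicates), and in both pairs they differed by more than sampling noise (chi-square per degree of freedom 1.19 and 1.36). All 10 ES cell markers were present, with a summed level of 6114 and 6115 CPM (counts scaled to a common library size) untreated and 5291 and 5220 after IAA. Of 10 fibroblast markers, which would show feeder cells, Postn, Lum, Dcn and Prrx1 had 0 counts in all 4 libraries, and the sum of the list was 13.6 and 10.7 CPM untreated and 15.0 and 14.2 after IAA. The sum of 5 trophectoderm markers was 8.80 and 8.06 CPM untreated and 12.0 and 11.3 after IAA. That of 6 primitive endoderm markers was 8.11 and 6.63 untreated and 5.17 and 4.07 after IAA. The fibroblast, trophectoderm and primitive endoderm sums moved with IAA without overlap. Only 4, 3 and 1 of these markers, in that order, had a mean of 1 CPM or more. Wider lists of 17 fibroblast and 16 trophectoderm genes had more falls than rises by the test below. Of 12 trophectoderm genes tested, 4 fell and 0 rose (median -0.35), or 4 and 2 with total counts. Of 8 fibroblast genes tested, 3 fell and 1 rose (median -0.29). Over all genes 18.0% fell and 16.8% rose. For 6 2-cell-like markers the sums overlapped, at 4.48 to 7.26 CPM. The part of these markers in the results was not tested. Mitochondrial mRNAs took 1.11% and 1.18% of the counts untreated and 1.30% and 1.38% after IAA. In bulk RNA, fewer cells of a type and less RNA per cell cannot be told apart. Counts are also shares of a library, and a joint fall of all mRNAs would not show in them.

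Levels below are CPM scaled with TMM, and changes are log2 fold changes of IAA against untreated ± SE from edgeR (n = 2 libraries per group). The words rose and fell are kept for genes with a Benjamini-Hochberg adjusted p under 0.05 over all genes tested, in edgeR's quasi-likelihood test, and such genes are called. The mRNA of the degraded subunit was looked at first. Polr2i (chr7:30231948-30233390, + strand, mm10) was at 35.6 and 43.0 CPM untreated and 29.1 and 31.0 CPM after IAA. Its IAA libraries were both below its untreated ones, but the change of -0.39 ± 0.20 did not pass (edgeR adjusted p = 0.137). The degron acts on the protein, so this mRNA does not report how much RPB9 was lost, and protein was not measured in these files.

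Of 17928 genes tested, 6243 (34.8%) changed: 3013 (16.8%) rose and 3230 (18.0%) fell. In WT cells the same treatment changed 295 (1.65%). The changes in RPB9 were mostly small, since 1896 of the 6243 reached 1 log2 unit in size, 1030 upward and 866 downward, and the median over all genes was 0.00. Without untreated replicate 1 the number that rose was 1955. The balance of rises and falls depends on the scaling: 48.3% of called genes were higher with TMM, 59.6% when scaled to total counts and 33.4% when scaled to mitochondrial mRNAs, where the median of all genes shifted to -0.14 and 1976 genes were called. All groups share the estimate of spread, and mitochondrial mRNAs took 0.534% and 1.72% of counts in the 2 RPB3 IAA libraries. Scaling to these mRNAs thus sets 2 replicates of another line apart, and its effect on the number of calls was not tested. Values in the text are relative to the TMM scale. The RPB9 response differed from the WT response in 3224 genes (18.0%), of which 1447 were higher and 1777 lower in RPB9 (1745 and 1441 with total counts and 103 and 137 with mitochondrial mRNAs). The 2 responses shared 168 called genes in the same direction, 56.9% of the WT calls and 2.69% of the RPB9 calls, and 27 in opposite directions.

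The genes with the largest falls are given first, among those with a mean of at least 5 CPM. Inhbb (chr1:119415465-119422248, - strand), which encodes the βB subunit of activin B and inhibin B, was at 14.4 and 14.6 CPM untreated and 0.162 and 0.321 CPM after IAA. That is 171 counts in the untreated libraries together against 3 after IAA, a ratio of 59.8 after scaling for library size (95% interval 20.1 to 293, counting error only), and Inhbb also fell in WT (-2.39 ± 0.40). Chac1 (chr2:119351229-119354381, + strand), an enzyme that breaks down glutathione, was at 52 and 54.6 CPM untreated and 2.60 and 1.93 CPM after IAA. The groups lie far apart, and the change was -4.55 ± 0.23 (edgeR adjusted p = 3.41e-20), while in WT Chac1 rose (0.61 ± 0.16). Ubap1l was at 31.3 and 35.7 CPM untreated and 3.25 and 1.93 CPM after IAA (-3.68 ± 0.26) and Fam84b at 9.94 and 8.67 CPM untreated and 0.975 and 1.61 CPM after IAA (-2.83 ± 0.34).

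Utf1, a chromatin-bound factor of undifferentiated ES cells, was at 152 and 132 CPM untreated and 17.5 and 18.8 CPM after IAA, a change of -2.96 ± 0.17 against -1.32 ± 0.17 in WT. Lefty2, a secreted inhibitor of Nodal, was at 42.1 and 42.1 CPM untreated and 7.15 and 6.10 CPM after IAA (-2.66 ± 0.15). Aire, known as the transcriptional regulator of self-antigens in the thymus, was at 17.9 and 16.1 CPM untreated and 2.92 and 2.89 CPM after IAA (-2.54 ± 0.25), and both it and Lefty2 fell in WT too (-1.06 ± 0.21 and -1.10 ± 0.12). Dnajb14, a J-domain co-chaperone of the endoplasmic reticulum, dropped from 21.0 and 22.0 to 2.92 and 4.66 CPM (-2.50 ± 0.21), with 0.14 ± 0.17 in WT. Aldh1l2, a mitochondrial enzyme of folate metabolism, went from 13.4 and 14.2 to 2.27 and 2.73 CPM (-2.45 ± 0.34). In none of these genes did an IAA library reach the level of an untreated one, as the rule for naming them requires.

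The genes that rose most were low before IAA. Cyp1a1 (chr9:57687928-57703824, + strand), a detoxifying enzyme and the classical target of the aryl hydrocarbon receptor, was at 0.497 and 0.173 CPM untreated and 16.1 and 14.3 CPM after IAA, a change of 5.39 ± 0.38 (edgeR adjusted p = 7.44e-15). It rose in WT as well (2.58 ± 0.60), and the difference between the responses did not pass (2.82 ± 1.05, edgeR adjusted p = 0.0623). Ovgp1, an oviductal glycoprotein, was at 1.33 and 0.52 CPM untreated and 11.4 and 10.9 CPM after IAA (3.55 ± 0.35), and Col11a2, a fibrillar collagen chain, at 1.16 and 0.52 CPM untreated and 10.7 and 8.35 CPM after IAA (3.46 ± 0.41). Slc16a8, a lactate transporter, was at 1.33 and 0.52 CPM untreated and 11.5 and 9.15 CPM after IAA (3.44 ± 0.38). None of these 3 genes passed the test in WT.

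Noxo1, an organizer of NADPH oxidase 1, was at 1.82 and 2.08 CPM untreated and 14.9 and 16.5 CPM after IAA, and Prob1 at 1.66 and 2.43 CPM untreated and 20.3 and 14.8 CPM after IAA, both without overlap of the groups. Their changes were 3.00 ± 0.26 and 3.09 ± 0.30, and both exceeded the WT response (edgeR adjusted p = 1.62e-06 and 0.000243). The homeobox gene Hoxb9 was at 3.98 and 1.56 CPM untreated and 23.2 and 21.0 CPM after IAA (2.98 ± 0.24) and Efnb2, a membrane ligand of Eph receptors, at 1.99 and 1.39 CPM untreated and 12.5 and 12.7 CPM after IAA (2.88 ± 0.31). Zfp672, a zinc finger gene, was at 2.65 and 4.51 CPM untreated and 24.2 and 27.0 CPM after IAA (2.84 ± 0.22). Tarm1 (2.79), Col20a1 (2.76) and Kbtbd6 (2.72) also rose, and their IAA libraries reached 17.4 and 18.1 CPM for Tarm1 and 11.7 and 9.79 CPM for Kbtbd6.

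**Figure D1:**
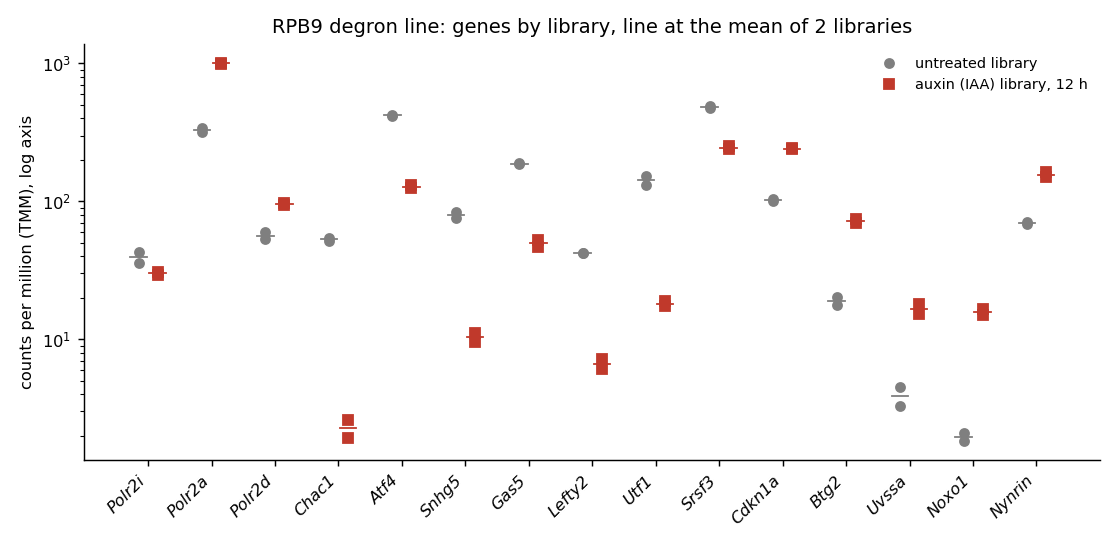
CPM (TMM scale, log axis) of 15 genes described in the text in the 4 RPB9 libraries: circles are untreated libraries, squares IAA libraries and the short lines the means of 2. In each gene both IAA libraries lie on 1 side of both untreated libraries; Chac1 drops from 52 and 54.6 to 2.60 and 1.93 CPM and Noxo1 climbs from 1.82 and 2.08 to 14.9 and 16.5 CPM, while Polr2i did not pass the test.

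Gene lists describe the response by function. They are summarised by how many tested members rose and fell and by their median, beside 16.8% higher, 18.0% lower and a median of 0.00 over all genes.

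Host genes of small nucleolar RNAs (snoRNAs) fell together. These genes carry snoRNAs, the guides of ribosomal RNA modification, in their introns, and most of their spliced transcripts make no protein and are known targets of nonsense-mediated decay. Of 15 members tested, 12 fell and 0 rose (0 higher at an unadjusted p under 0.05 in edgeR and 0 with DESeq2), with a median of -1.43 against 0.00 in WT. Snhg5 (chr9:88521050-88522929, - strand) was at 76.2 and 83.2 CPM untreated and 11.2 and 9.63 CPM after IAA. Both IAA libraries lie well under both untreated ones, and the change was -2.93 ± 0.16 (edgeR adjusted p = 5.14e-19). Gas5 was the most abundant of those that fell by over 1 log2 unit, at 186 and 188 CPM untreated and 52.6 and 46.4 CPM after IAA (-1.92 ± 0.11). Snhg1 was at 109.6 and 108 CPM untreated and 35.9 and 34.5 CPM after IAA (-1.62 ± 0.12) and Zfas1 at 57.8 and 54.8 CPM untreated and 15.3 and 10.6 CPM after IAA (-2.12 ± 0.21). Snhg14 (-0.15) and Snhg20 (0.19) did not pass.

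In 11 of the 15 hosts the RPB9 response was lower than that of WT. It was lower than that of RPB11 in 7, and the median of the list was -0.25 in RPB11. Against RPB3 1 host was lower and 1 higher, and in RPB3 itself 12 of 15 fell with a median of -1.76, so the fall is not confined to RPB9. Among all 12 other lines, the response of Snhg5 and of Gas5 was lower in RPB9 than in 10 each. Scaling to mitochondrial mRNAs left 9 of the 15 called lower. Before IAA 3 of the 15 were lower in RPB9 than in WT. Genes annotated as snoRNAs themselves, a group added after values were seen, had 12 of 48 lower, with a median of -0.80. In a poly(A) library such counts cannot be told from reads of unspliced host RNA.

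**Figure D2:**
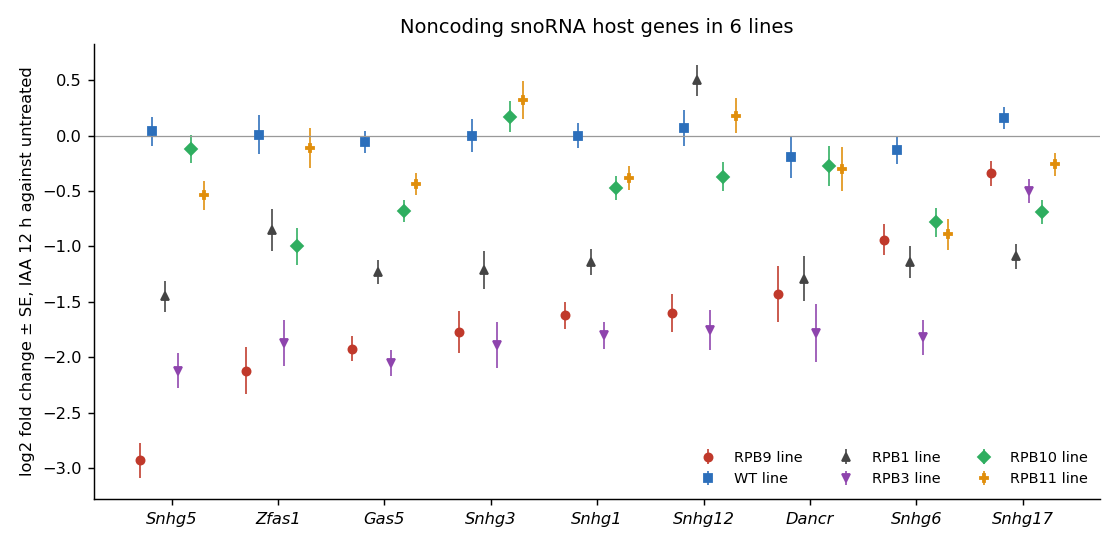
Log2 fold change of 9 snoRNA host genes after 12 h of IAA in RPB9, WT, RPB1, RPB3, RPB10 and RPB11; points are edgeR estimates and bars their SE. For Snhg5 RPB9 lies lowest (-2.93) and WT near 0 (0.04 ± 0.13), while for Gas5 RPB9 (-1.92) and RPB3 (-2.05 ± 0.12) lie side by side.

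Genes of the integrated stress response and of amino acid supply were lower after IAA. In this response, kinases that sense a lack of amino acids or misfolded protein raise translation of the transcription factor ATF4, which turns on transporters, tRNA synthetases and enzymes of amino acid synthesis. Of 34 members tested, 30 fell and 0 rose (0 higher at an unadjusted p under 0.05 in edgeR and 0 with DESeq2). The median was -0.78, against -0.12 in WT, where 4 fell and 1 rose, and in 25 members the response was lower than in WT by the test of the difference. Atf4 itself was at 425 and 419 CPM untreated and 130.3 and 125 CPM after IAA (-1.72 ± 0.11). Slc7a3, an importer of cationic amino acids, was at 151 and 143 CPM untreated and 35.4 and 35.5 CPM after IAA (-2.05 ± 0.10). Gpt2, a mitochondrial alanine transaminase, was at 428 and 410.5 CPM untreated and 148 and 143 CPM after IAA (-1.52 ± 0.08), and Mthfd2, of mitochondrial folate metabolism, at 264 and 286 CPM untreated and 105 and 108 CPM after IAA (-1.37 ± 0.07). Pycr1, the last step of proline synthesis, dropped by more in RPB9 than in 11 of the other 12 lines (-1.45 ± 0.10). Sesn2 (-0.18) and Ddit4 (-0.12) did not pass. Atf4 and Pycr1 are printed here outside the rule for named genes, chosen after their values were seen.

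The level before IAA differed between the lines. In untreated RPB9 cells 18 of the 34 genes were already higher than in untreated WT and 1 was lower (median 0.37). This comparison and that of IAA share the 2 untreated RPB9 libraries. Chac1 was at 25.1 and 24.7 CPM in untreated WT against 52 and 54.6 in untreated RPB9. After IAA it was at 36.3 and 40.0 CPM in WT and 2.60 and 1.93 CPM in RPB9, so the RPB9 libraries went from above WT to below it. Stc2, a secreted glycoprotein, shows the same order: RPB9 was at 14.8 and 17.5 CPM untreated and 4.06 and 2.57 CPM after IAA and WT at 5.84 and 4.62 and 6.78 and 6.80 CPM. In RPB11 28 of the 34 fell and in RPB3 the median was -1.28, against -0.71 in RPB11. The RPB9 response was lower than that of RPB11 in 4 members, and against RPB3 it was lower in 1 and higher in 15. With scaling to mitochondrial mRNAs 20 members were lower.

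**Figure D3:**
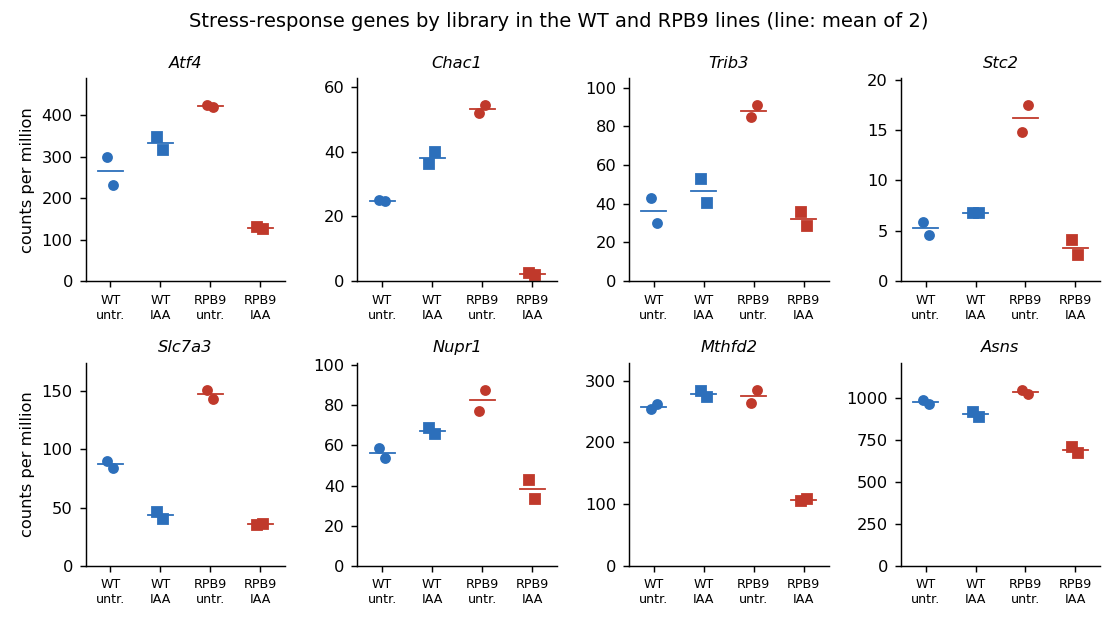
CPM (TMM scale, linear axes from 0) of 8 integrated stress response genes in the untreated and IAA libraries of WT and RPB9; each point is a library and the line the mean of 2. In all 8 genes both RPB9 libraries lie lower after IAA than before it, for example Atf4 at 425 and 419 CPM before and 130.3 and 125 CPM after.

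The promoters of this list were searched for TGATGNAA, a short form of the site that ATF4 binds with a C/EBP partner, a search added after values were seen. Promoters were windows of 300 bases, from 250 before to 50 after the RefSeq start (GRCm38.p6, the same build as mm10), read on both strands. Of 32 promoters of the list, from 28 genes, 8 (25.0%) held a match, against 2.35% of 15234 promoters from 12037 tested genes. The share was 3.02% in promoters of genes that fell, which include the fallen members of the list, and 1.69% in those that rose. The list was put together by this function, so its share does not bear on the response in RPB9. The pieces around the match in 4 of these genes are shown because they hold the match, which most promoters of the list lack. The match is in capitals; each is written 5′ to 3′ on the strand of its gene, so that a match on the other strand appears as its reverse complement TTNCATCA.
Chac1 (chr2:119351033-119351072, + strand): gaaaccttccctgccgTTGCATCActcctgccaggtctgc
Pycr1 (chr11:120643828-120643867, - strand): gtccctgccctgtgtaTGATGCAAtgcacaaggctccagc
Vldlr (chr19:27216804-27216843, + strand): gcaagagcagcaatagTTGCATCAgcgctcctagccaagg
Asns (chr6:7693210-7693248, - strand): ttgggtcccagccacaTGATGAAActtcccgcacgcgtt
All 4 of these genes fell, but so did 30 of the 34 tested members of the list. Their changes were -4.55 for Chac1, -1.45 for Pycr1, -2.86 for Vldlr, a lipoprotein receptor, and -0.59 for Asns, asparagine synthetase. Members with and without a match were not compared. A match is a run of letters and was not tested as a binding site.

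The miR-290 to miR-295 cluster lies within a few kilobases on chromosome 7 and is the most abundant microRNA family of mouse ES cells, made from 1 long primary transcript. The 6 mature microRNAs below are shown because their seeds (bases 2 to 8, in capitals; RefSeq, GRCm38.p6) recur within the cluster.
miR-291a-3p: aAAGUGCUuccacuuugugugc
miR-294-3p: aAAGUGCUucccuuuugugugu
miR-295-3p: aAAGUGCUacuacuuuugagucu
miR-290a-5p: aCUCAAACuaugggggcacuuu
miR-292a-5p: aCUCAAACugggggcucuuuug
miR-293-5p: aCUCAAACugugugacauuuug
The first 3 share the seed AAGUGCU and the other 3 share CUCAAAC, 2 of the 11 seeds among 17 mature sequences. A poly(A) library does not capture mature microRNAs, so counts on the hairpin genes of the + strand reflect their shared primary transcript. These hairpin genes are therefore not independent of each other. The group was added after Mir291b appeared among the genes that fell most.

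All 8 hairpin genes tested fell in RPB9, with a median of -2.72 (0.24 in WT). Mir291b (chr7:3219482-3219560, + strand) was at 13.9 and 10.1 CPM untreated and 2.11 and 1.77 CPM after IAA (-2.62 ± 0.31). Both IAA libraries lie under both untreated ones. Mir293 and Mir295 had the smallest change, -1.94. Reads on the other hairpins were few: Mir290a held 21 and 20 counts untreated and 2 and 0 after IAA, and Mir290b 10 and 12 against 1 and 2, so their sizes of change are imprecise. The difference from the WT response passed in 5 of 8, all lower in RPB9. The fall is not confined to RPB9: 7 of 8 fell in RPB3 (median -3.09) and 8 in RPB7 (median -4.47). Against RPB3 the difference passed in 0. In RPB11 4 fell (median -1.09), and in RPB4 and RPB12 0 fell. In untreated cells 5 of 8 were higher in RPB9 than in WT, so here too the fall began from a higher level: Mir291b was at 4.07 and 6.22 CPM in untreated WT. Both comparisons use the same untreated RPB9 libraries. Mir290b and Mir292b lie on the - strand, antisense to Mir290a and Mir292. Without a stated strand setting the reads of such a pair cannot be told apart.

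Of 30 naive pluripotency genes, 21 fell and 0 rose (median -0.60; 0 higher at an unadjusted p under 0.05 in edgeR and 0 with DESeq2), against 9 lower and 1 higher in WT (median -0.21). The difference from WT passed in 16 members downward and 1 upward. Lin28a, an RNA-binding protein that blocks let-7 maturation, was at 172 and 192 CPM untreated and 74.7 and 73.9 CPM after IAA (-1.29 ± 0.08) and did not overlap between groups. Fgf4, the growth factor that drives ERK signalling in ES cells, was at 385 and 372 CPM untreated and 190 and 196 CPM after IAA (-0.97 ± 0.07), and Tdgf1, a co-receptor of Nodal, at 557 and 588 CPM untreated and 304 and 304 CPM after IAA (-0.91 ± 0.07). The core factor Pou5f1 (Oct4) was at 1059 and 1047 CPM untreated and 1051 and 1014 CPM after IAA and did not pass (-0.03 ± 0.14, edgeR adjusted p = 0.904). The fall is not confined to RPB9: 20 fell in RPB3 (median -0.64), 24 in RPB7 (-0.61) and 15 in RPB11 (-0.24), and 1, 1 and 3 rose. The RPB9 response was lower than that of RPB11 in 9 members and higher in 1. Against RPB3 it was lower in 2 and higher in 5. In untreated cells 11 of the 30 were higher in RPB9 than in WT and 1 lower, a comparison that shares the untreated RPB9 libraries with that of IAA.

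Feedback genes of FGF-ERK signalling, which switch off with the pathway, fell in 10 of 16 (5 with mitochondrial scaling) and rose in 0 (median -0.48; 1 higher at an unadjusted p under 0.05 in edgeR and 0 with DESeq2). Spry4, an inhibitor of the pathway, dropped from 7.96 and 7.63 to 0.162 and 0.642 CPM (-4.19 ± 0.39), and Etv4, a transcription factor of the ETS family, from 38.5 and 35.7 to 15.1 and 14.9 CPM (-1.30 ± 0.13). In WT 4 of the 16 fell (median -0.23), and the difference between RPB9 and WT passed in 2, both lower in RPB9. Other lines had such falls too: 8 genes in RPB12 (median -0.83), 7 in RPB4 (-0.53), 7 in RPB3 (-0.2) and 6 in RPB11 (-0.19). Of 19 genes of the Nodal, activin and BMP pathways 6 fell and 2 rose (median 0.03). Beside Lefty2, Id3, a BMP target, fell (-2.10 ± 0.28), while Msx2 (2.43 ± 0.46) and Id2 (1.21 ± 0.25) rose. Wnt targets rose in 6 of 16 (1 with mitochondrial scaling), but 5 of 16 rose in WT and the medians were 0.47 and 0.57. Axin2, the Wnt feedback inhibitor, was at 22.9 and 23.2 CPM untreated and 43.9 and 45.4 CPM after IAA (0.95 ± 0.13) and its WT change was 0.71 ± 0.13.

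Of 12 genes of DNA methylation and demethylation, 8 fell and 1 rose (3 and 0 with mitochondrial scaling), led by Tet1 (-1.30 ± 0.14), which oxidizes methylcytosine, and Dnmt3l (-1.02 ± 0.10), the cofactor of the de novo methyltransferases. Of 21 Polycomb genes, 10 fell and 4 rose (4 and 2 with mitochondrial scaling). Ezh2, the histone methyltransferase of the repressive complex PRC2, went from 229.5 and 251 to 176 and 178 CPM (-0.44 ± 0.08), and Eed (-0.58) and Mtf2 (-0.75) fell as well, whereas Cbx8 (1.50 ± 0.33) and Epop (1.07 ± 0.16) rose.

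Among mRNAs of the 12 Pol II subunits 5 rose and 0 fell (0 lower at an unadjusted p under 0.05 in edgeR and 0 with DESeq2). Polr2a, which encodes the catalytic subunit RPB1, was at 341 and 317 CPM untreated and 990.1 and 1008 CPM after IAA without overlap (1.60 ± 0.12, edgeR adjusted p = 3.78e-15). In WT its change was 0.20 ± 0.12, and in RPB9 it was higher than in 8 of the other 12 lines and lower than in 2. Polr2d (0.76 ± 0.11) and Polr2l (0.65 ± 0.20) rose by less, and Polr2b, the other large subunit, was at 205 and 217 CPM untreated and 246 and 248 CPM after IAA (0.23 ± 0.09, edgeR adjusted p = 0.0388). Polr2e (0.07) and Polr2c (-0.10) did not pass. The count of 5 is 2 to 3 when any 1 RPB9 library is left out and 1 when scaled to mitochondrial mRNAs.

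General transcription factors, which place Pol II at promoters, had 12 of 30 higher and 3 lower (median 0.18), a balance that became 1 and 1 when scaled to mitochondrial mRNAs. Gtf2b (TFIIB) was at 20.6 and 17.5 CPM untreated and 39.5 and 36.1 CPM after IAA (0.99 ± 0.14) and Taf12 at 35.3 and 34.7 CPM untreated and 70.7 and 69.8 CPM after IAA (1.01 ± 0.13), while Mnat1, of the kinase module of TFIIH, fell (-0.88 ± 0.13). Transcript cleavage and elongation factors had 10 of 27 higher and 6 lower (median 0.21), which turned to 0 and 2 with that scaling. Tcea3, a form of TFIIS and so of the factor RPB9 is known to work with, was at 44.3 and 46.7 CPM untreated and 21.3 and 19.6 CPM after IAA (-1.15 ± 0.14). Supt6 (0.75 ± 0.09), Paf1 (0.87 ± 0.11) and Ctr9 (0.59 ± 0.09), which travel with elongating Pol II, rose. Of 15 pausing and P-TEFb genes 6 rose and 2 fell (0 and 1 with that scaling): Hexim1 (0.93 ± 0.10) and Mepce (0.85 ± 0.10), which hold the kinase P-TEFb inactive in the 7SK particle, rose, and Larp7 (-1.11 ± 0.11), of the same particle, fell.

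In transcription-coupled and nucleotide excision repair, 5 of 23 genes rose and 5 fell (1 and 3 when scaled to mitochondrial mRNAs, 7 and 4 to total counts). Uvssa, which acts on stalled Pol II, was at 3.31 and 4.51 CPM untreated and 15.3 and 18.1 CPM after IAA (2.09 ± 0.25). Ercc6 (CSB), the ATPase that recognises stalled Pol II, was at 32.2 and 27.7 CPM untreated and 15.1 and 13.5 CPM after IAA (-1.07 ± 0.16). The 2 proteins act on the same substrate, and their mRNAs moved in opposite directions. Of 28 genes of double-strand break and fork repair 13 fell and 5 rose (7 and 0 with mitochondrial scaling, 8 and 2 without IAA replicate 1), with Nbn (-1.47 ± 0.17), Atr (-1.01 ± 0.12) and Rad50 (-0.92 ± 0.11) among those lower.

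Several groups of RNA processing genes had more falls than rises. SR proteins and their kinases, which guide splice site choice, had 7 of 18 lower and 3 higher (5 and 0 with mitochondrial scaling). Srsf3 was at 477 and 493 CPM untreated and 250.4 and 239 CPM after IAA (-0.99 ± 0.09) and Srsf1 at 467 and 474 CPM untreated and 240.2 and 229 CPM after IAA (-1.0 ± 0.07), whereas the kinase Clk4 rose (0.52 ± 0.13). Of 34 core spliceosome genes 10 fell and 4 rose (3 and 0 with mitochondrial scaling, 8 and 6 with total counts), with Sf3b3 (-1.35 ± 0.07) and Snrpa (-1.03 ± 0.10) lowest. Integrator and 3′ end processing genes had 9 of 31 lower, led by Ints7 (-1.27 ± 0.11), and 5 higher (7 and 6 with RLE or total counts, 2 and 0 with mitochondrial scaling). The torpedo exonuclease Xrn2, which ends transcription, was at 176 and 176 CPM untreated and 113 and 109.5 CPM after IAA (-0.66 ± 0.08). Of 40 mRNA decay genes 18 fell and 6 rose (3 and 2 with mitochondrial scaling); Cnot1, the scaffold of the CCR4-NOT deadenylase, dropped from 979 and 962 to 495 and 532 CPM (-0.92 ± 0.10), and Tob1 (1.03 ± 0.10) and Tob2 (1.07 ± 0.13), adaptors of that complex, rose.

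Ribosome biogenesis genes had 25 of 50 lower and 4 higher (7 and 0 with mitochondrial scaling), with a median of -0.26 against 0.00 in WT. Ddx21 was at 505 and 514 CPM untreated and 343 and 325 CPM after IAA (-0.61 ± 0.07), and Nop56, of box C/D snoRNA particles, at 469 and 459 CPM untreated and 306 and 286 CPM after IAA (-0.65 ± 0.08). The mRNAs of cytosolic ribosomal proteins stayed closer to their level: 4 of 89 fell and 0 rose (1 higher at an unadjusted p under 0.05 in edgeR and 1 with DESeq2; 2 fell and 1 rose with total counts), and the median was -0.07 in RPB9 and in WT. Of 13 nuclear long noncoding RNAs 7 fell and 3 rose. Neat1, the scaffold of paraspeckles, was at 92.1 and 97.6 CPM untreated and 28.4 and 28.6 CPM after IAA (-1.73 ± 0.17), and Lncenc1, an ES cell transcript, at 398 and 387 CPM untreated and 132 and 137 CPM after IAA (-1.54 ± 0.10).

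Of 29 p53 targets 12 rose and 3 fell (median 0.21), and the response was higher than in WT in 9 and lower in 3. Rises were as many in RPB11 (12, median 0.28) and more in RPB3 (19, median 0.77) and RPB10 (24, median 1.1). The RPB9 response was lower than that of RPB3 in 14 members and of RPB10 in 20, and higher in 1 each. In RPB2 and RPB6 19 and 20 members fell. Plk2 was at 7.96 and 10.2 CPM untreated and 41.1 and 36.6 CPM after IAA (2.10 ± 0.16) and Cdkn1a, the cell cycle inhibitor p21, at 104 and 101 CPM untreated and 238 and 244 CPM after IAA (1.23 ± 0.09). Btg2, an antiproliferative gene, was at 20.1 and 17.7 CPM untreated and 74.9 and 70.0 CPM after IAA (1.94 ± 0.12). Gdf15, a secreted stress factor that ATF4 also controls, moved the other way, from 22.9 and 19.6 to 6.34 and 7.22 CPM (-1.64 ± 0.22). With mitochondrial scaling 5 were higher and 1 lower.

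Heat shock genes and chaperones had 7 of 25 higher and 12 lower (2 and 2 with mitochondrial scaling). The constitutive chaperones Hspa8 (-0.97 ± 0.07), Hspa9 (-0.87 ± 0.06) and Hspa5 (-0.48 ± 0.07) fell, and Dnajb1 (0.64 ± 0.08) and Hsf1 (0.56 ± 0.10) rose. Hspa1a (2.06 ± 0.24) and Hspa1b (1.56 ± 0.19) were also higher but are near-identical copies, so the split of reads between them is uncertain. Targets of the oxidative stress factor NRF2 rose in 8 of 21 and fell in 2 (1 and 1 with mitochondrial scaling), with rises in Srxn1 (1.10 ± 0.12) and Gclc (0.79 ± 0.10). Immediate-early genes rose in 11 of 35 and fell in 4 (5 and 2 with mitochondrial scaling): Junb (1.40 ± 0.14) and Jun (1.25 ± 0.20) were higher, and Atf3 (-1.86 ± 0.27) and Mycn (-0.90 ± 0.10) lower. Of 9 aryl hydrocarbon receptor targets 3 rose and 2 fell (3 and 0 with total counts, 2 and 0 with mitochondrial scaling). Beside Cyp1a1, Cyp1b1 had 0 counts untreated and 12 after IAA.

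**Figure D4:**
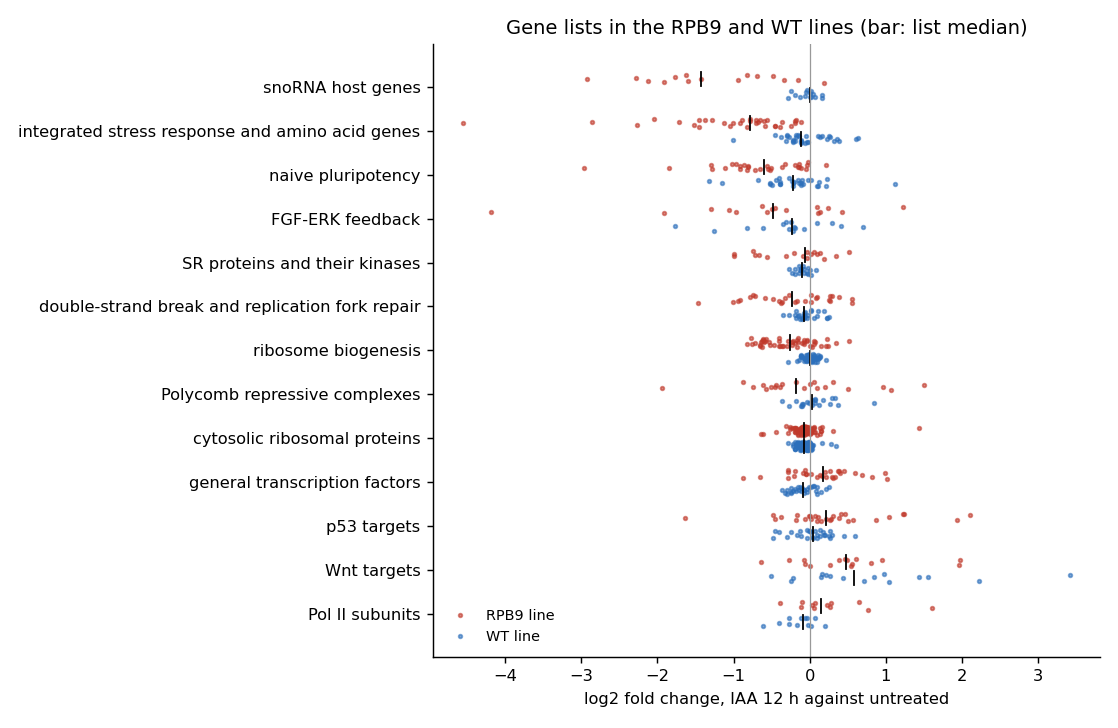
Log2 fold change after 12 h of IAA of the tested members of 13 gene lists in RPB9 and in WT; each point is a gene and the bar the median. The snoRNA host genes (median -1.43 and 0.00) and the integrated stress response genes (-0.78 and -0.12) lie apart in the 2 lines, while the Wnt targets have medians of 0.47 and 0.57.

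The response varied with the genomic span of a gene. Among 14253 protein-coding genes tested, 17.9% rose and 20.6% fell. In genes under 5 kb 20.4% rose and 10.2% fell (median 0.11, 1779 genes). The share that fell was higher in each longer class, at 16.1%, 19.1%, 24.2% and 31.1%, and reached 38.0% over 300 kb, where 3.76% rose (median -0.52, 266 genes). The longest class is also the least abundant, with a median level of 6.69 CPM against 33.2 CPM in the class of 30 to 100 kb. In WT the genes over 300 kb had 3.76% lower and 0.376% higher (median -0.21). The difference from WT passed in 35 of the 266 downward and 3 upward. The pattern is not particular to RPB9: in RPB11 41.4% of the longest class fell (median -0.58).

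Sbf2, a phosphatase-like protein of membrane traffic that spans 307 kb, was at 74.7 and 72.0 CPM untreated and 15.3 and 16.7 CPM after IAA (-2.20 ± 0.15). Lpp, a focal adhesion protein spanning 599 kb, was at 28.0 and 25.5 CPM untreated and 6.99 and 7.87 CPM after IAA (-1.85 ± 0.20). Both lie far below their untreated level, and Scaper, over 388 kb, dropped from 25.4 and 23.9 to 7.80 and 5.78 CPM (-1.86 ± 0.20). Among the 10 genes over 300 kb that rose, Mtus2 went from 11.6 and 10.9 to 20.1 and 19.3 CPM (0.81 ± 0.17). Exon number followed the same order: 13.1% of genes with 1 exon fell and 23.0% rose, against 29.0% and 12.3% of genes with over 20 exons. Span and exon number go together across genes, and their parts were not separated.

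**Figure D5:**
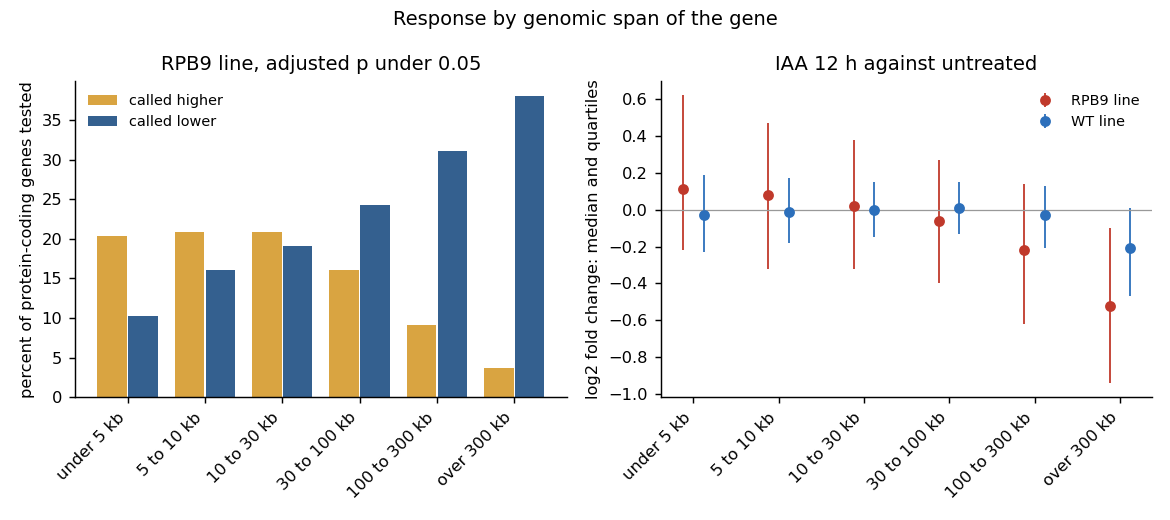
Protein-coding genes by genomic span: bars on the left give the percent called higher and lower in RPB9, and points on the right the median log2 fold change in RPB9 and WT with bars from the lower to the upper quartile of genes. The share called lower goes from 10.2% under 5 kb to 38.0% over 300 kb, and the median in RPB9 from 0.11 to -0.52 against -0.03 to -0.21 in WT.

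Promoters were also described by 5 short motifs, spelled here in letters and read on both strands. GGGCGG, a GC box, was in 59.0% of the promoters of all tested genes, 64.1% of those of genes that rose and 61.2% of those that fell. CCAAT was in 37.8%, 41.3% and 35.7% in the same order. TATAAA was in 7.41%, 6.23% and 7.21%, CACGTG in 9.45%, 9.01% and 10.5%, and TGACGTCA in 2.92%, 3.75% and 2.68%.

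Untreated RPB9 cells were compared with untreated WT cells to show what the tagged line brought into the experiment. A total of 2817 genes (15.7%) differed, 1536 higher and 1281 lower in RPB9, and an effect of the tag and a difference between the lines cannot be told apart. The count was 1241 without RPB9 untreated replicate 1, 1295 without replicate 2, 1697 without WT untreated replicate 1 and 1021 without WT untreated replicate 2. With total counts 36.9% of the called genes were higher in RPB9, and with mitochondrial mRNAs 76.1%, against 54.5% with TMM. Lama2, a laminin chain, was at 36.5 and 35.6 CPM in untreated RPB9, and the 2 WT libraries held 0 and 1 count. Duox1, an oxidase that makes hydrogen peroxide, was at 13.1 and 11.1 CPM in untreated RPB9 and 2.12 and 1.60 in WT (2.69 ± 0.29, edgeR adjusted p = 6.60e-09). Rhox5, a homeobox gene of the X chromosome, was at 10.8 and 9.54 against 2.30 and 2.13 CPM. Lower in RPB9 were Srgap3 at 1.99 and 1.21 against 8.49 and 10.3 CPM and Tspan7 at 2.65 and 1.73 against 9.91 and 7.46 CPM. Of these 5 genes, whose IAA comparison uses the same untreated RPB9 libraries, Lama2 (-0.41), Duox1 (-0.57) and Tspan7 (-1.42) then fell with IAA in RPB9.

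The response of RPB9 was tested against that of each other degron line, and 3 lines are taken up in detail. Against RPB1, the catalytic subunit, 6836 genes (38.1%) differed, against RPB10, a small subunit shared with Pol I and Pol III, 3502 (19.5%), and against RPB11, part of the assembly platform of Pol II, 611 (3.41%). For the other lines the share of genes that differed was 57.4% for RPB2, 56.1% for RPB6, 41.3% for RPB8, 27.1% for RPB5, 18.4% for RPB4, 16.5% for RPB12, 10.3% for RPB7 and 5.84% (1047 genes) for RPB3. The RPB11 count was 277 to 372 when any 1 of the 4 RPB9 libraries was left out. RPB9 and RPB11 shared 2879 called genes in the same direction, 46.1% of the RPB9 calls and 67.9% of the 4240 RPB11 calls. RPB9 and RPB3 shared 4680, 75.0% of the RPB9 calls and 54.7% of the 8558 RPB3 calls. The share of RPB9 calls found in a line also depends on how many calls that line has. A difference that does not pass does not show that the lines respond alike.

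Snhg5 was among the 4 genes lowest in RPB9 relative to RPB11 (-2.40 ± 0.21, edgeR adjusted p = 6.02e-11), its change in RPB11 being -0.54 ± 0.13. Chac1 (-2.81 ± 0.32, edgeR adjusted p = 5.91e-08) and Inhbb (-3.21 ± 0.86, edgeR adjusted p = 0.0233) were also lower. Noxo1 rose in RPB9 and was 0.14 ± 0.28 in RPB11, and Pgam2, the muscle form of phosphoglycerate mutase, was at 2.15 and 2.95 CPM untreated and 15.1 and 13.0 CPM after IAA in RPB9 (2.46 ± 0.30) against a change of -0.19 ± 0.43 in RPB11. Rhcg, an ammonium transporter, rose from 0.663 and 0.347 to 7.80 and 7.87 CPM, 3.88 ± 0.41 against 1.56 ± 0.24. Relative to RPB10 the lowest genes were Chac1 (-5.17 ± 0.29, edgeR adjusted p = 5.31e-18), Ubap1l, Stc2 and Phf7. Chac1 had a change of 0.63 ± 0.16 in RPB10. Stc2 had a change of -2.27 ± 0.22 in RPB9 and 1.46 ± 0.18 in RPB10. Relative to RPB1, Inka2 was among the lowest although it rose in RPB9 (2.03 ± 0.45), since its change in RPB1 was 9.53 ± 0.71, and Mipol1 was among the highest although it fell (-0.86 ± 0.20), with -6.93 ± 0.50 in RPB1.

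Only 1 gene had a response in RPB9 that differed in the same direction from that of WT and each of the other 11 degron lines. Nynrin (chr14:55854010-55874736, + strand), a gene with an integrase-like domain, was at 70.6 and 68.9 CPM untreated and 150 and 162 CPM after IAA. The groups do not overlap, and the rise was 1.16 ± 0.11 (edgeR adjusted p = 3.20e-11), against 0.36 ± 0.12 in WT, where the level was 58.6 and 57.0 CPM untreated and 73.4 and 74.8 after IAA. Nynrin no longer met the rule without IAA replicate 2, without untreated replicate 1 or without untreated replicate 2. Of genes that differed from at least 11 lines, 5 were higher and 5 lower in RPB9, and from at least 10 lines, 23 and 19.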

How the data were processed

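RNA of V6.5 mouse ES cells, mixed with 10% Drosophila S2 cells as a spike-in, was sequenced from poly(A) libraries, per the labels' protocols. The values the authors deposited are raw read counts, whole numbers for 55335 Ensembl genes in 1 table. The submitters' processing notes list, without role or order, the builds mm10 and dm6 and the tools cutadapt 1.18, Bowtie2, DESeq2, STAR, featureCounts, SAMtools and deepTools. No source used here names the annotation release or the strand setting, so near-identical, overlapping and antisense genes are uncertain. Fly counts were not analysed here, and 4 columns of the table have no matching sample and were left out. GENCODE M21 (mm10) gave coordinates and symbols, for 55154 genes.

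All 52 libraries of the 12 h set (26 groups) entered 1 fit with edgeR 4.0.16 under R 4.3.3: TMM scaling, filterByExpr, the two-sided quasi-likelihood F-test and Benjamini-Hochberg adjustment at 0.05, with 26 residual degrees of freedom, 17928 genes and 99.83% of counts. Depth in this set was 3399838 to 7164928 counts, and the TMM factors of the RPB9 libraries were 1.035 to 1.105. Counts were also simulated for this comparison, with 67, 67 and 66 genes changed 1.5-fold, 2-fold and 4-fold (17686 genes fitted). The test recovered 40.3%, 80.6% and 86.4% of these in that order, with 5 false calls. The simulation used the spread fitted here and changed far fewer genes than the 6243 called. It cannot show the error rate where the scaling is off or the spread is only technical. Alternatives were DESeq2 1.42.0, other scalings and filters, RPB9 libraries only, leaving out libraries and a replicate block; replicate numbers do not pair these samples. Figures were drawn with matplotlib 3.10.9.

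The genes to name were Polr2i, the 12 called genes that rose most and the 12 that fell most (mean of at least 5 CPM, groups not overlapping), up to 4 called members in each direction and 2 others of each of 48 lists, and 4 genes at either end of each further comparison; model-name symbols were left out, and not all are printed. The members and lists were chosen with earlier results of these data known. Genes outside this rule were picked after their values were seen. Intervals cover counting error only.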

Additional observations from a re-analysis of the deposited data

Results flagged for a closer look

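The response to IAA differed between RPB9 and other lines by the test of the difference of responses. The count of genes called was 3224 against WT, 6836 against RPB1, 3502 against RPB10 and 611 against RPB11. Nynrin was set apart because its rise of 1.16 log2 units in RPB9 differed from the response of each of the other 12 lines. With 2 libraries per group no library could be tested for standing apart from its group.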

How the results depend on the processing

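Of 488 called genes among those named or listed, 0 changed sign under any alternative run. The number that no longer passed was 9 with RLE size factors, 36 with total counts, 277 with scaling to mitochondrial mRNAs, 39 without the filter, 26 with DESeq2, 25 with the replicate block and 69 to 76 when 1 RPB9 library was left out. Genes called in RPB9 numbered 6243, and 6329 with RLE, 6396 with total counts, 5335 with DESeq2, 5707 without the filter, 7919 in a fit of the RPB9 libraries only and 4508 to 4768 leaving out 1 library. Scaling to mitochondrial mRNAs gave 1976 (660 higher, 1316 lower), 240 against WT, 3554 against RPB1, 477 against RPB10 and 23 against RPB11. It gave 284 for untreated RPB9 against WT and 0 that differ from each other line. The shared spread under this scaling includes the RPB3 IAA libraries, with 0.534% and 1.72% mitochondrial mRNA, and the cause of the lower counts was not tested. The 804 changes of at least 1 log2 unit with a mean of 5 CPM or more come from fewer genes tested. A fit of RPB9 and WT libraries only, added after seeing the data, called 5118 differences from WT. The replicate block gave 5732 for RPB9, 402 against RPB11 and 825 for the untreated comparison; numbers in these samples do not pair them (correlation of deviations 0.0029). Leaving out 1 library gave ranges of 1955 to 2161 for genes higher in RPB9, 2371 to 2477 against WT, 277 to 372 against RPB11, 1021 to 1697 for the untreated comparison and 0 to 1 for the genes that differ from each other line. With 5581452 to 5798718 counts a library, changes in genes of few CPM are the least precise.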

Other observations

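Long noncoding RNAs that share a promoter with a neighbouring gene, by their annotation type (bidirectional promoter), were a group with many rises. Of 95 tested in RPB9, 24 (25.3%) rose and 1 (1.05%) fell, with a median of 0.55. In WT the median was -0.08. RPB11 had 18 higher and 1 lower (median 0.60) and RPB3 47 and 5 (median 1.11). Over all genes 16.8% rose and 18.0% fell. Of 612 long intergenic RNAs 88 (14.4%) were higher and 46 (7.52%) lower (median 0.31). Pseudogenes copied from mRNA, as processed pseudogenes, had 57 of 667 higher and 37 lower (median 0.05).

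Replication-dependent histone genes, whose mRNAs normally end without poly(A), had 5 of 24 tested members higher and 0 lower (1 lower at an unadjusted p under 0.05 in edgeR and 0 with DESeq2) in a poly(A) library. That is 20.8% higher, near the 16.8% of all genes, and the list median was 0.06. In WT 0 rose, in RPB11 6 rose and 0 fell, and in RPB3 9 rose and 3 fell. Hist2h2be (1.96 ± 0.40) and Hist1h2bc (1.39 ± 0.27) were among those higher in RPB9. H1f0 (1.70 ± 0.10), the replacement linker histone of cells that stop dividing, rose there as well. Histone copies are near identical, so their values are uncertain. Hrk, a cell death activator of the Bcl2 family, fell from 5.80 and 6.59 to 0.812 and 0.642 CPM (-3.05 ± 0.39), while Pmaip1 (1.24 ± 0.17), Bcl2l11 (1.03 ± 0.16) and Bad (1.21 ± 0.15) of the same family rose. Of 25 glycolysis and hypoxia genes 7 fell and 1 rose (4 and 0 with mitochondrial scaling): Pdk1, which keeps pyruvate out of mitochondria, was at 80.5 and 79.1 CPM untreated and 15.1 and 16.5 CPM after IAA (-2.33 ± 0.10), and Vegfa at 77.4 and 76.0 CPM untreated and 31.2 and 33.6 CPM after IAA (-1.24 ± 0.12).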
